A study of Mus musculus with 2 samples.

Results

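The regions described here are ATAC-seq peaks of mouse cardiac fibroblasts that were strong and had a far lower read density after silencing of Piezo2. A peak was included when it lay on a numbered chromosome, the mean of its 2 normalized read densities was at least 25, and the density in the knockdown library plus 1, divided by the density in the control library plus 1, was at most 0.5. Of the 63316 peaks, 27593 were strong by the density minimum, and 650 of these (2.36% of the strong peaks) met the ratio as well. These members were chosen by the 2 densities themselves, so their loss is a description and is given without a test. The same strong peaks held 75 with a ratio of at least 2 (0.272%), so that lowered peaks made up 89.7% of the strong peaks past either limit. That split depended on the scaling of the libraries: it was 67.9% after scaling by the median ratio of all peaks, which moved the median log2 ratio of the strong peaks from -0.09 to 0.04, and 78.3% after scaling to the same total density.

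ATAC-seq uses a transposase to cut DNA where chromatin is accessible, and the density of cuts over a region reads how open it is. The study asked how the chromatin of primary cardiac fibroblasts changes when Piezo2, a mechanosensitive ion channel of the cell membrane, is silenced. There were 2 conditions. The NC library came from heart fibroblasts given a scrambled control siRNA and TGF-β, and the SiPiezo2 library from fibroblasts given an siRNA against Piezo2 and TGF-β. Both therefore carried TGF-β, and no untreated cells were compared. The labels give no strain, age or genotype, and they do not say how many animals each library pooled. A text on the whole series instead describes deletion of Tet3 with Cre, which does not match the labels used here. Each condition had 1 library, so no difference below has a replicate check, and the intervals cover counting error only. Reads are not marked as independent molecules, and differences between cultures are outside these intervals. Knockdown of Piezo2 itself cannot be read from accessibility. In bulk chromatin, fewer cells of an activated type and less open chromatin per cell cannot be told apart.

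TGF-β turns resting fibroblasts into myofibroblasts, contractile cells that assemble smooth muscle actin fibres and secrete collagen, fibronectin and the enzymes that crosslink them. SRF with its actin-sensing cofactors, and TEAD factors with YAP and TAZ, are the best known regulators that carry mechanical signals to the promoters and enhancers of these genes. Enhancers lie mostly in introns and between genes, and they tend to differ between cell states more than promoters do.

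The libraries differed in depth. Reads in the 2000 bp windows about all peaks came to 4615335 in NC and 2754046 in SiPiezo2. Of the 650 lowered peaks, 520 (80.0%) had been called in NC alone, 130 (20.0%) in both libraries and 0 in SiPiezo2 alone, against 35.7%, 63.1% and 1.23% of all strong peaks. The calls and the ratio rest on the same reads, so fewer calls in SiPiezo2 were built into the rule. With the recovered reads of both libraries scaled to the same total, 409 peaks met the rule, and 395 of them were among the 650. The defining genes of cardiac fibroblasts were represented, with 19 strong peaks at 7 of 9 listed genes. Cardiomyocyte, endothelial, macrophage, smooth muscle and pericyte, and epicardial markers had between 1 and 6 strong peaks a list. No peak assigned to a gene of the 6 cell type lists was lowered. They held only 36 strong peaks at 17 genes, too few to tell 0 from the 2.36% of strong peaks. The listed gene Col1a1 had lowered peaks past its end, described below, that were assigned to no gene and so were not counted.

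In the NC library the 650 peaks had densities from 34.0 to 194 (median 47.3), and in the SiPiezo2 library from 7.81 to 70.6 (median 19.7). These densities rested on 81 to 517 reads (median 115) in NC and on 12 to 102 reads (median 31) in SiPiezo2. The median log2 ratio, defined throughout as log2 of (SiPiezo2 density + 1)/(NC density + 1), was -1.17, with quartiles of -1.30 and -1.06, against -0.09 for all strong peaks and -0.13 for all peaks of the table. Most of the set lay close to the limit. A ratio above -1.25 was found for 438 peaks (67.4%), whereas 64 (9.85%) were at or below -1.5 and 11 (1.69%) at or below -2. The 95% exact binomial interval of the reads lay wholly below 0 for all 650 peaks and wholly below -1 for 64. These intervals come from the reads that also chose the members. That all 650 lay below 0 therefore followed from the rule and is no check on the loss. The 3 members nearest to the limit, at Gm5608, in an intron of Itga9 and at the Itsn1 promoter, had ratios of -1.0012, -1.0006 and -1.0006. The 3 strong peaks just outside it had ratios between -1 and -0.9995.

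**Figure D1:**
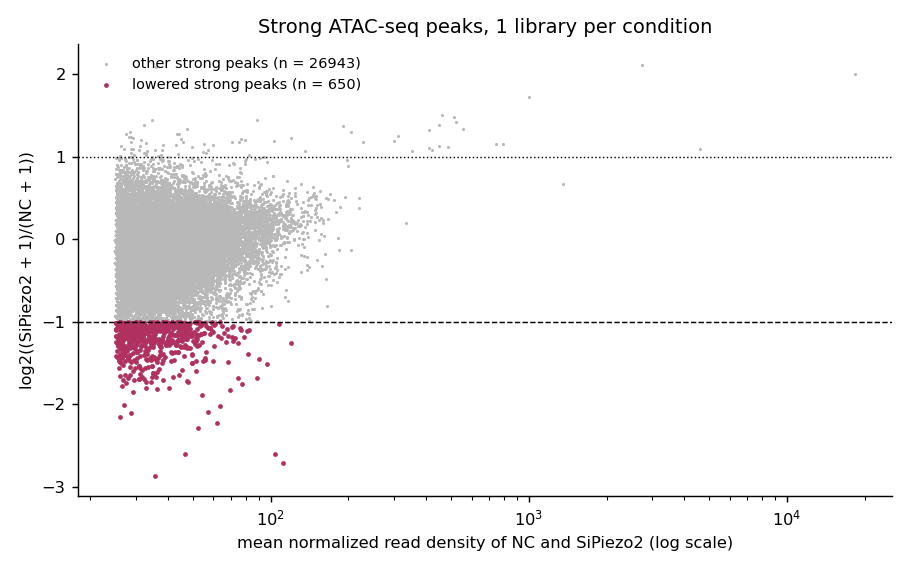
Log2 ratio of SiPiezo2 to NC (vertical axis) against the mean normalized read density of the 2 libraries (horizontal axis, log scale) for 27593 strong peaks, 1 point a peak. The 650 lowered peaks (red) lie below the dashed line at -1 and are few above a density of 75, while the few peaks with densities over 200 lie mostly above the dotted line at 1.

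The share of strong peaks in the lowered set varied with their density. It was 2.80% at mean densities of 25 to 30, 2.38% at 30 to 40, 2.49% at 40 to 50, 1.70% at 50 to 75 and 0.985% at 75 to 100. Of 331 peaks between 100 and 200, 4 were lowered (1.21%). Of the 26 peaks with a mean density of 200 or more, 0 were lowered and 21 had a ratio of at least 2. The median log2 ratio of all strong peaks rose with density as well, from -0.13 at 25 to 30 to 0.08 at 75 to 100. It was 0.21 at 100 to 200 and 1.16 at 200 or more. Lowered peaks occurred on all 19 numbered chromosomes, at shares from 1.42% of strong peaks on chromosome 12 to 3.71% on chromosome 13. They were wider than strong peaks in general, with a median width of 449 bp against 381 bp.

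Lowered peaks were scarce at promoters and made up larger shares of peaks in introns, downstream of genes and between genes. Of 7366 strong promoter peaks 52 were lowered (0.706%, 95% exact binomial interval 0.528 to 0.925), and of 1924 peaks in 5′ UTRs 4 were (0.208%, 0.0567 to 0.531). Exons held 12 of 1256 (0.955%, 0.495 to 1.66). Introns held the largest number, 288 of 10214 (2.82%, 2.51 to 3.16), and distal intergenic sequence 254 of 6069 (4.19%, 3.70 to 4.72). Regions within 3 kb downstream of a gene had the highest share, 29 of 424 (6.84%, 4.63 to 9.68), an interval that overlaps that of intergenic sequence, and 3′ UTRs had 11 of 340 (3.24%, 1.63 to 5.71). These 7 classes add up to all 650 peaks. The 75 strong peaks with a ratio of at least 2 were few at promoters as well, with 7 there (9.33%) and 0 in 5′ UTRs, whereas promoters were 26.7% of strong peaks, and 36 (48.0%) were intergenic. The downstream class made up 4.46% of the members here and between 1.54% and 12% of them under other thresholds and scalings. The interval for promoters thus lay below, and those for introns, downstream regions and intergenic sequence lay above, the 2.36% of all strong peaks. The median distance to the nearest transcription start site (TSS) was 14360 bp for lowered peaks and 4063 bp for strong peaks, and 59 lowered peaks (9.08%) lay within 1 kb of a TSS, compared with 38.7% of strong peaks.

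**Figure D2:**
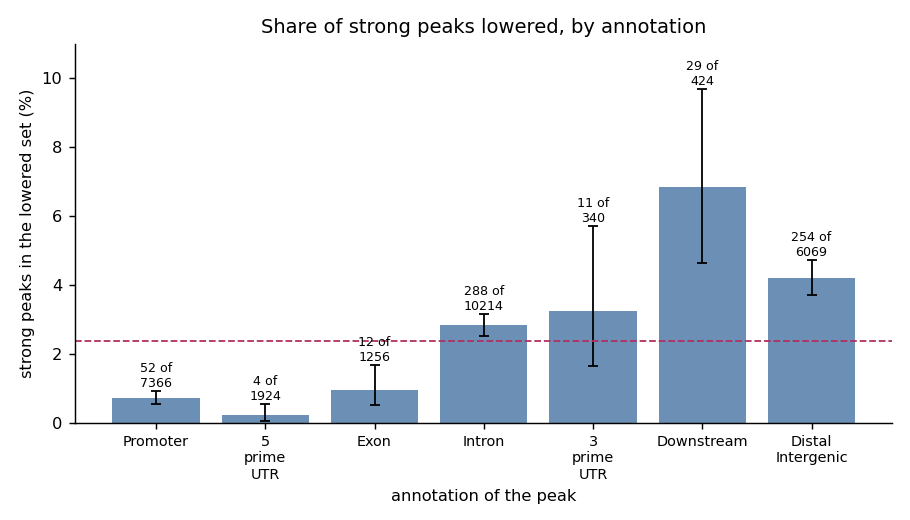
Percent of strong peaks in the lowered set (vertical axis) for each annotation class of the table (horizontal axis). Bars give the share, error bars its 95% exact binomial interval from peak counts, and the dashed line the 2.36% of all strong peaks. The promoter and 5′ UTR bars, at 0.706% and 0.208%, stand below the line, and the downstream bar stands highest at 6.84%.

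The lowered peaks included the promoter of the gene that defines the myofibroblast. Acta2 encodes α-smooth muscle actin, and the peak over its TSS (chr19:34232582-34233210) had a density of 102 in NC and 35.4 in SiPiezo2, from 265 and 53 reads (log2 ratio -1.50, interval -1.96 to -1.10). Tagln, which encodes the actin-binding protein transgelin, had 72.6 and 29.5 at its TSS (chr9:45847048-45847513, -1.27). Myl9, the regulatory light chain of smooth muscle and nonmuscle myosin, had 51.8 and 21.8 (chr2:156616502-156617419, -1.21). The rule fixed the direction of these 3 contractile gene starts, and the upper ends of their read intervals reached -0.70.

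A few matrix and signalling genes also had a lowered peak at the start site itself. Tnc encodes tenascin-C, a matrix glycoprotein of injured tissue, and its TSS peak had a density of 42.3 in NC and 20.3 in SiPiezo2 (chr4:63965038-63965409, log2 ratio -1.02). Mfap4, a microfibril-associated protein, had 64.5 and 28.0 (-1.18), Has2, which makes hyaluronan, had 36.4 and 15.7 (-1.16), and Edn1, the precursor of the vasoconstrictor endothelin-1, had 43.7 and 17.8 (chr13:42454694-42455135, -1.25). Has2 and Edn1 are on none of the gene lists used here and were named after their values were seen. The TSS of the RNA-binding protein gene Csdc2 (77.7 and 24.9, -1.61) and of the chromatin remodeler gene Chd2 (54.0 and 19.2, -1.44) had still lower ratios than these 4.

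A few of these starts are shown as RefSeq gives them, to let the letters under a lowered promoter be read. Each run holds the 250 bases before the RefSeq start in GRCm38.p6, 5′ to 3′ on the strand of the gene, and lies entirely under its peak. Capitals mark GGAATG, the core letters bound by TEAD factors, or its reverse complement in the first 2 windows, and a CArG box, the element bound by SRF, in the last.
Acta2 (chr19:34255374-34255623, minus strand): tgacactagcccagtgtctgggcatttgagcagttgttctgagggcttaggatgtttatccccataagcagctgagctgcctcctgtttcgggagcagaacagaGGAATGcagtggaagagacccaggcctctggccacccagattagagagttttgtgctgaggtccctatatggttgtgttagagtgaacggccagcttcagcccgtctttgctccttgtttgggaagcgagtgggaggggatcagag
Edn1 (chr13:42301226-42301475, plus strand): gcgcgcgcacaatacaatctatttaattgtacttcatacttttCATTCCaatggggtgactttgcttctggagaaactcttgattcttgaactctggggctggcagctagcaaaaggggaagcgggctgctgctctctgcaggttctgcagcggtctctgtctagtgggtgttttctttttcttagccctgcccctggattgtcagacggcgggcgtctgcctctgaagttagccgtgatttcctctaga
Myl9 (chr2:156775214-156775463, plus strand): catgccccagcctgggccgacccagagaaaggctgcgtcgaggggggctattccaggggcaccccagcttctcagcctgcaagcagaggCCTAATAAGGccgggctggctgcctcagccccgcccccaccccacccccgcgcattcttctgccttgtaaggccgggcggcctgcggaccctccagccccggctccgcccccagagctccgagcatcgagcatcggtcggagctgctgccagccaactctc
The match begins 146 bases before the start in Acta2, 207 bases before it in Edn1 and 161 bases before it in Myl9.

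RefSeq windows could be matched to 14 lowered promoters, each with at least 150 of its 250 bases under the peak. Both strands were searched, the CArG box only in its strict form with no mismatch. Elements that differ from it by 1 base, in the Acta2 window too, were therefore not counted or marked. A CArG box was in 1 of the 14, GGAATG in 3, the AP-1 letters TGANTCA in 2, the ETS letters GAGGAA in 5, the RUNX letters TGTGGT in 3, the C/EBP letters TTGCNNAA in 1, and the palindromic NF-1 site and SMAD letters GTCTAGAC in 0. Over 32851 RefSeq windows of the same length the shares were 1.47%, 12.6%, 6.75%, 23.3%, 14.0%, 9.56%, 0.0365% and 0.167% in that order. Over the 4831 windows under any strong peak they were 1.26%, 10.1%, 4.97%, 21.0%, 10.6%, 7.06%, 0.0207% and 0.186%. For these motifs, counts of 0 to 5 in 14 windows are too few to set apart from such shares. The GC box letters GGGCGG were in 3 of the 14 (21.4%), in 68.2% of 4831 windows under any strong peak and in 32.7% of all windows. One pair of matches shared bases, the TEAD and ETS letters of Acta2 with 4 bases in common. A match names letters only, not a bound factor.

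Several of the lowest ratios lay beyond the 3′ ends of activated fibroblast genes rather than at their starts. The peak just past the end of Acta2 (chr19:34218131-34218346) had a density of 63.3 in NC and 7.81 in SiPiezo2, from 151 and 12 reads (log2 ratio -2.87, interval -3.80 to -2.19). The next one, 1.25 kb past the end and inside the last intron, number 10, of Stambpl1 (chr19:34217010-34217467), had 80.7 and 12.4 (-2.61). Both were lower than the -1.50 of the Acta2 TSS, and a further member 10.3 kb upstream had -1.07. The windows of the 2 downstream peaks overlap, so they share reads. Beyond this group, a peak 29.5 kb upstream had -1.46 at a mean density under the minimum of 25.

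Ccn2 encodes a matricellular growth factor that YAP and TEAD are known to activate, and 4 of its peaks from start to end are given here. The TSS peak had a density of 192 in NC and 136 in SiPiezo2 (log2 ratio -0.49), and the peak 1.19 kb further on had 211 and 120 (-0.81). The peak in the 3′ portion, at 2.22 kb (chr10:24473110-24474013, annotated to the promoter of the noncoding Gm15270), had 170 and 70.4 (-1.26), and the peak at 4.14 kb, past the end of the 3.24 kb gene (chr10:24475301-24475667), had 120 and 34.9 (-1.75). The ratio was lower from each peak to the next, but the windows of neighbouring peaks overlap and share reads, so that these are not 4 separate measurements. The peaks at -26.9, -14.2 and -5.98 kb from the TSS had ratios of -0.22, 0.20 and -0.13, and the peak at 14.5 kb had 0.48.

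Thbs1 encodes thrombospondin-1, which can release TGF-β from its latent complex. The 3 lowered peaks assigned to it lay between 16.0 and 17.3 kb from its TSS (chr2:117958055-117959915 from the first to the last), past the end of the 15.3 kb gene and close to the end of Fsip1. Their densities were 114, 136 and 109 in NC and 34.9, 41.4 and 30.0 in SiPiezo2, with log2 ratios of -1.68, -1.69 and -1.83. The Thbs1 TSS had 88.0 and 77.4 (-0.18). Its remaining peaks in the region had ratios between -0.30 and 0.11. The 3 windows overlap.

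Fn1, the fibronectin gene, had 2 lowered peaks 2.02 and 2.85 kb past its end (chr1:71622502-71622824 and chr1:71621717-71621944). They had densities of 53.3 and 55.1 in NC and 15.4 and 16.7 in SiPiezo2, and log2 ratios of -1.73 and -1.67. The TSS of Fn1 had 86.1 and 71.7 (-0.26) and an intronic peak at 9.67 kb had -0.76. Col1a1, which encodes the main chain of collagen type I, was similar. The peak 2.29 kb past its end (chr11:94846030-94846284) had 103 in NC and 24.5 in SiPiezo2 (-2.03) and the next (chr11:94848427-94849387) had 133 and 47.6 (-1.46), whereas its 2 peaks near the TSS were at -0.50 and -0.38.

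At Actb, Csf1, Ankrd1, Lox and H3f3b too, lowered peaks past the gene end had lower ratios than the TSS. At Actb, the gene for β-actin, the TSS had 75 in NC and 56.7 in SiPiezo2 (log2 ratio -0.40), and the member 1.45 kb past its end (chr5:142887244-142887596) had 110 and 47.9 (-1.18). A peak still further on, annotated to the Fbxl18 promoter (chr5:142882065-142882807), had 103 and 21.1 (-2.23). The member downstream of Actg1, the gene for γ-actin (chr11:120234145-120235472), had 144 and 49.9 (-1.51), but Actg1 had no peak at its start to set beside it. Csf1, which encodes a macrophage growth factor, had 119 and 44.6 past its end (-1.39) and 60.1 and 49.4 at its TSS (-0.28). Ankrd1, a stress-responsive muscle ankyrin protein and target of YAP, had 3 members past its end, with log2 ratios of -1.05 to -1.12, and 73.4 against 75.4 at the TSS (0.04). A further intergenic member at -13.8 kb from the Ankrd1 TSS had 48.9 and 19.8 (-1.26), lower than the 3 past the end. Intergenic members also lay at -22.5 kb from the TSS of Actb (-1.09) and at -16.0 kb from that of Csf1 (-1.05). For Lox, the lysyl oxidase that crosslinks collagen, the pair past the end had ratios of -1.36 and -1.38 and the TSS -0.84. H3f3b, a gene for histone H3.3 outside the listed programs, had -1.01 and -1.15 past its end and -0.04 at its TSS.

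**Figure D3:**
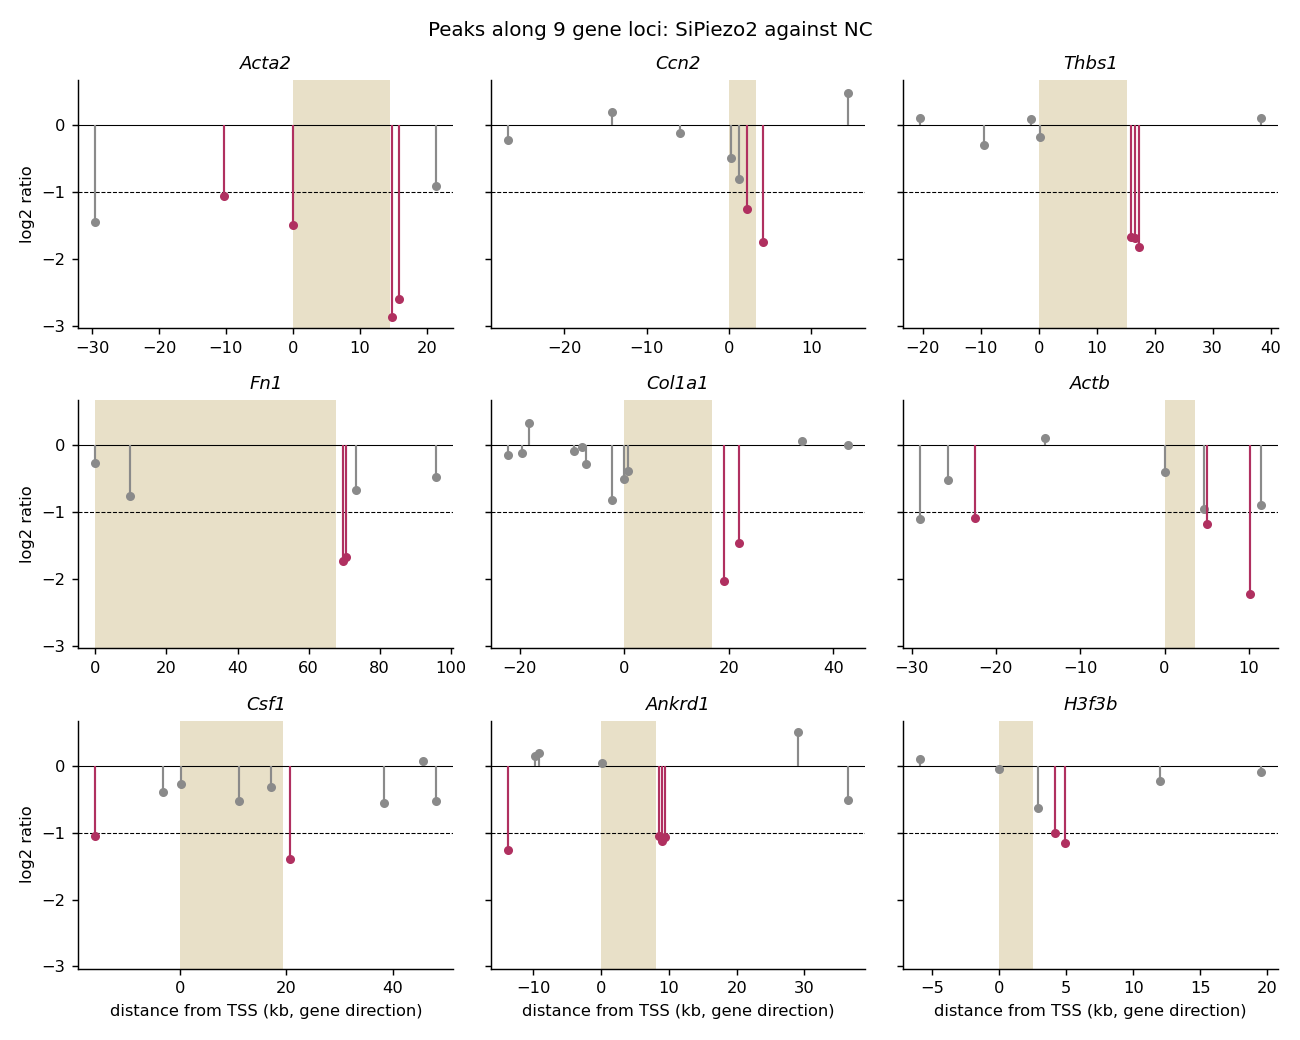
Log2 ratio of SiPiezo2 to NC (vertical axes) of every peak against its distance from the TSS in kb along the gene (horizontal axes) at 9 gene loci, with lowered strong peaks in red, other peaks in grey and the gene body shaded. The dashed line marks -1. At each of the 9 loci at least 1 red peak stands past the shaded gene, and the peak nearest to the TSS is above -1 at all but Acta2, where it is -1.50.

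These loci were singled out after their values were seen. Over all strong peaks, the 10 kb past gene ends had a larger lowered share than start sites, where 59 of 10681 peaks within 1 kb of a TSS were lowered (0.552%, interval 0.421 to 0.712). By this definition the share of gene ends was not set apart from that of other distal peaks. Of 3027 strong peaks more than 1 kb from a TSS and up to 10 kb past a gene end, 116 were lowered (3.83%, interval 3.18 to 4.58), against 475 of 13885 peaks elsewhere beyond 1 kb of a TSS (3.42%, 3.12 to 3.74). Within 2 kb past an end the share was 4.39%, from 2 to 5 kb 4.71% and from 5 to 10 kb 2.88%. The intervals of these gene ends and of other distal sequence overlapped. The downstream class given earlier, within 3 kb of a gene, had an interval (4.63 to 9.68) above the 3.12 to 3.74 elsewhere. The comparison thus depends on how gene ends are defined. Timp3, which encodes a metalloproteinase inhibitor, had a member 2.01 kb past its end in an exon of Syn3 (55.0 and 17.3, log2 ratio -1.61) and 0.04 at its TSS. Dusp1, which encodes a phosphatase of MAP kinases, had 2 members with overlapping windows, 7.80 and 8.12 kb past its end, inside Gm34455, both at -1.28, with 0.28 at its TSS.

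The start sites of genes with a distant lowered peak were examined apart. Among 178 genes with a lowered peak more than 1 kb from any TSS and with a TSS peak, the median log2 ratio of the TSS peak was -0.09, 64.0% were below 0 and 3 were at or below -1. For the 3036 genes with any strong peak beyond 1 kb the median was -0.03, with 53.4% below 0 and 25 at or below -1. For the 69 genes with a lowered peak up to 10 kb past their end it was -0.18, with 71.0% below 0 and 2 at or below -1.

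The table assigned 396 of the 650 peaks to 334 genes, which was 2.91% of the 11477 genes with a strong peak. By peak, the 396 were 1.84% of 21523 assigned strong peaks. Lowered peaks beside a gene but assigned to another gene or to none do not count for it below. Those at Ccn2 and past the end of Col1a1 are such peaks. The shares in gene groups are given by gene and by peak, because a gene with more strong peaks has more chances to hold a lowered one and the genes of the lists below held 3.65 strong peaks each on average, against 1.88 for all genes. Of myofibroblast markers 5 of 12 genes with a strong peak (41.7%) had a lowered one, as did 8 of their 32 strong peaks (25%), namely Acta2, Fn1, Lox, Myl9 and Tagln. The smooth muscle contractile list had 6 of 23 (26.1%, or 6.86% of 102 peaks), which added Lmod1 (44.5 in NC and 14.0 in SiPiezo2, log2 ratio -1.61, intron 1), Palld (43.8 and 13.3, -1.65, intron 9) and Synpo2 (39.6 and 19.0, -1.03, intron 1), all proteins of actin filaments. The SRF target list had 9 of 34 (26.5%, or 11.9% of 118 peaks), among them Fhl2, a LIM domain cofactor, at -1.17 and -1.03, and Myh9, nonmuscle myosin heavy chain, at -1.07 and -1.05. Over all strong peaks of these lists, including those not lowered, the median log2 ratio was -0.49, -0.33 and -0.40, compared with -0.08 for all assigned strong peaks, and 30 of 32, 83 of 102 and 95 of 118 peaks were below 0. The lists share Acta2, Myl9 and Tagln, and they were drawn up with earlier results of these data known.

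Matrix genes were the next group. Of structural matrix genes 7 of 43 (16.3%, or 6.70% of 179 strong peaks) had a lowered peak. Fbn1, which encodes fibrillin-1 of elastic fibres, had 3 in introns 2 and 6, with log2 ratios of -1.18, -1.02 and -1.04, among 22 strong peaks. Col14a1 (57.8 and 27.2, -1.06) and Hspg2, the gene for perlecan (72.8 and 35.5, -1.02), had 1 each. Of genes for crosslinking and turnover 5 of 28 (17.9%, or 6.19% of 97 peaks) had one, including Loxl1 in intron 2 (98.6 and 42.9, -1.18), the prolyl hydroxylase subunit P4ha3 (44.7 and 19.1, -1.19) and the metalloproteinases Adamts12 (-1.46) and Adamts6 (-1.12).

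Cell adhesion and signalling genes were counted in the same way. Of focal adhesion genes 5 of 34 (14.7%, or 2.79% of 179 strong peaks) had a lowered peak: Itga11, a collagen-binding integrin chain (-1.05), Pxn, which encodes paxillin (-1.19), Tln2, talin-2 (-1.38), Tns3, tensin-3 (-1.09), and Nedd9 (-1.01). TEAD, YAP and TAZ targets had 4 of 25 (16.0%, or 8.11% of 111 peaks), with Amotl1 at -1.07 in addition to Ankrd1 and Thbs1. Of TGF-β signalling genes 2 of 31 (6.45%, or 2.42% of 124 peaks) had one, including Smad7, the inhibitory SMAD (77.6 and 36.3, -1.08). The channel list had 2 of 17 (11.8%, or 2.38% of 84 peaks). The shares by peak of the focal adhesion, TGF-β and channel lists, from 2 to 5 lowered peaks each, lay near the 1.84% of all assigned strong peaks. Piezo2 itself had one in intron 3 (62.3 in NC and 27.3 in SiPiezo2, from 157 and 42 reads, -1.16), and Nfatc3, a calcium-regulated factor, had the other in intron 9 (40.0 and 19.0, -1.04).

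Other lists stood outside these programs. AP-1 factors had 0 of 9, resting fibroblast genes 0 of 12 and cell cycle genes 0 of 21. Inflammatory and interferon genes had 1 of 16 (6.25%, or 3.57% of 28 peaks), Csf1, and the housekeeping list had 2 of 23 (8.70%, or 5.13% of 39 peaks), Actb and Tbp (intron 5, 45.1 and 19.1, -1.20). The median log2 ratios of all strong peaks of the AP-1, resting fibroblast and cell cycle genes were -0.01, 0.00 and 0.02. With 9 to 21 genes in a list, a share of 0 could not be told from 2.91%.

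**Figure D4:**
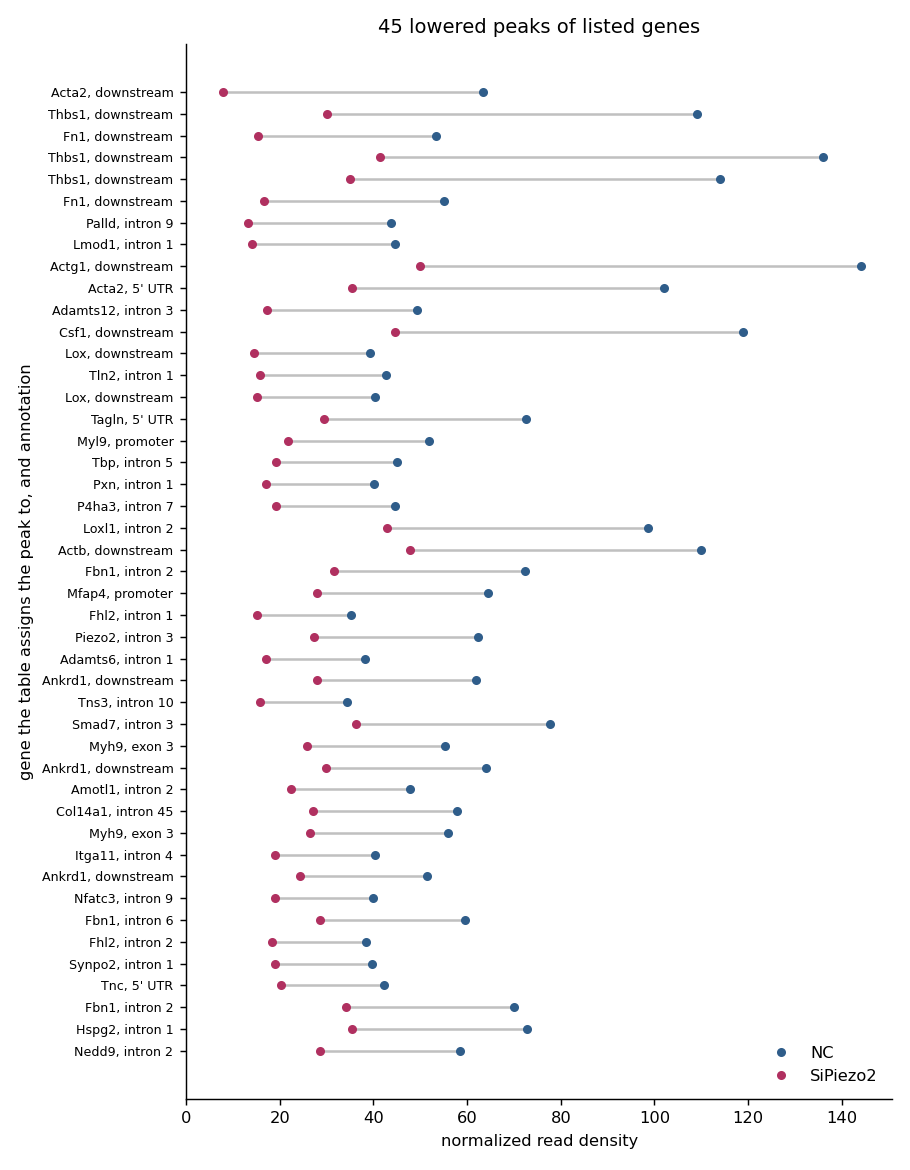
Normalized read density (horizontal axis) in NC (blue) and SiPiezo2 (red) of 45 lowered peaks assigned to listed genes, 1 line a peak, ordered from the lowest log2 ratio at the top. Acta2 downstream stands first at 63.3 and 7.81, and every red point lies left of its blue point because the ratio chose the peaks.

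Some lowered peaks lay close together. Joined where they lay within 50 kb of each other, the 650 peaks formed 538 loci, of which 441 had 1 peak, 84 had 2, 11 had 3 and 2 had 4. Because close peaks share the reads of their 2000 bp windows, only 581 were separate measurements. Bvht, a long noncoding RNA named for its part in heart development, had 3 members: its exon 1 peak had a density of 87.3 in NC and 17.0 in SiPiezo2 (log2 ratio -2.29), and 2 of its 3 promoter peaks had -1.20 and -1.33, while the other promoter peak had 47.1 and 40.1 (-0.23). A second noncoding gene beside it, Carmn, had 125 and 90.9 at one promoter peak (-0.46). A group of 3 intergenic peaks about 95 kb from Pde7a (chr3:19460432-19462857 from first to last) had -2.09, -1.75 and -1.57, the strongest of them from 92.9 to 21.0. Cemip, which encodes a hyaluronan-degrading protein, had members at -1.45, -1.46 and -1.09, and its remaining strong peaks had a median of -0.66. Kif26b, a kinesin gene, had -1.40, -1.33 and -1.03. Past the end of Spsb1, which encodes an adaptor of a ubiquitin ligase, 3 intergenic members had -1.24, -1.06 and -1.03. Another 3, beside the noncoding 1700054K19Rik (chr6:112174559-112176608 from first to last), had -1.22, -1.47 and -1.65, those around 2310022B05Rik had -1.70, -1.13 and -1.03, and those around 9430078K24Rik had -1.48, -1.05 and -1.03.

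Among the 15 lowest ratios were also 6 peaks outside these groups and at none of the listed genes. The intergenic peak nearest to Gm11364 (chr13:29320099-29320568) had a density of 43.3 in NC and 8.91 in SiPiezo2 (log2 ratio -2.16). The one nearest to Rflna, an actin organizer gene (chr5:125040851-125041583), had 47.5 and 10.2 (-2.11), and the one nearest to Zfp626 (chr7:27493963-27494445) had 43.9 and 10.2 (-2.01). They rested on 102 to 113 reads in NC and 14 to 16 in SiPiezo2, so their intervals were wide, with upper ends between -1.49 and -1.36. An intron 11 peak of Dlgap1 had 85.6 and 22.3 (-1.89), an intergenic peak near Clasp2, a microtubule-binding protein gene, had 46.4 and 12.1 (-1.86), and an intron 3 peak of Gm40915 had 56.8 and 15.4 (-1.82).

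The peaks around a lowered peak were lower as well. Peaks outside the set at 2 to 5 kb from the nearest lowered peak had a median log2 ratio of -0.33 (144 peaks, 95% interval of the median -0.44 to -0.23), and 79.9% of them were below 0. The median was -0.25 at 5 to 10 kb, -0.22 at 10 to 25 kb, -0.17 at 25 to 50 kb and -0.14 at 50 to 100 kb, and it was -0.12 beyond 500 kb, where 62.8% were below 0. Distances run between peak centres, so the windows compared here share few or no reads with a lowered peak. The medians of the first 4 distance classes lay below that of the last by more than their intervals.

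**Figure D5:**
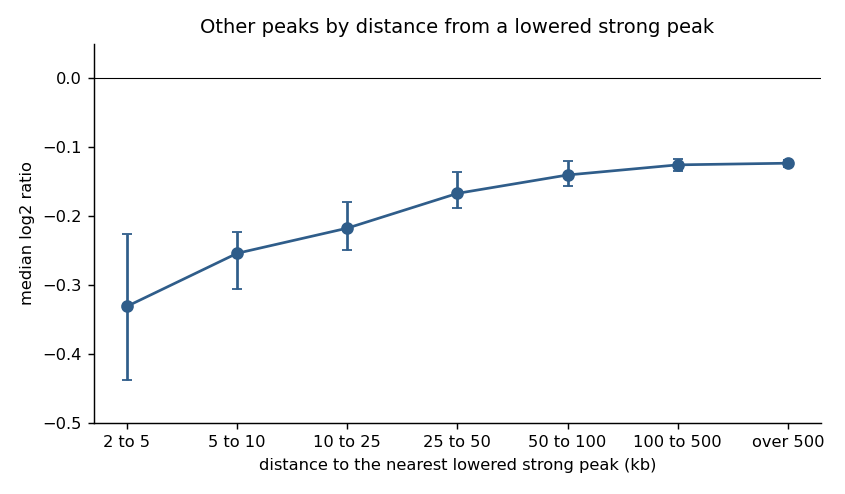
Median log2 ratio of SiPiezo2 to NC (vertical axis) of peaks outside the lowered set, by distance to the nearest lowered strong peak in kb (horizontal axis). Points are medians and bars their 95% order-statistic intervals over peaks. The median moves from -0.33 at 2 to 5 kb to -0.12 beyond 500 kb.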

How the data were processed

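ATAC-seq libraries of primary mouse cardiac fibroblasts were compared, 1 per condition, grouped by the labels. The submitters' processing notes name BWA (0.7.12) and mm10. Of 30590 transcripts in the peak table that GENCODE vM21 also lists, however, only 649 had the same start in GRCm38, so its coordinates belong to another mouse assembly, and no sequence was read at them. They are printed as deposited, and whether starts count from 0 or 1 is not given in the sources used here. The labels and the study's list of reagents name a Vazyme kit, whereas its ATAC-seq protocol names an Active Motif kit and minced tissue, so how the nuclei were obtained is unsure. The authors deposited 1 table of merged peaks with normalized read density (a signal per 2000 bp window, scaled between libraries by a fitted line), gene assignments, and the authors' own comparison (M values, a log2 fold change and p-values), which was not used. Peaks were called by the authors per library. The study's methods name MACS2 with a q-value threshold as the caller, adapter trimming, and removal of PCR duplicates with Picard.

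Whole reads were recovered from the densities alone, as the density pairs of 100.0% of peaks gave whole numbers within 0.05 (fitted slope 0.1738, intercept -0.2482). The recovery was tested on simulated data. Ratios used a pseudocount of 1. Intervals are exact binomial (Clopper-Pearson) at 95% and cover counting error only, and those of medians are order-statistic intervals. No test across peaks was run, since there was 1 library per condition. The members, gene lists and loci were chosen with earlier results of these data known, and nothing here is independent of them. Named peaks were the 15 lowest ratios, the 5 densest members, members assigned to a listed gene, members of loci of 3 or more, and the 3 peaks on each side of the limit. Further genes at start sites and gene ends were named after their values were seen. Some peaks that this rule names are not reported here. Promoter sequences are RefSeq's (GRCm38.p6), searched over 250 bases. Analyses ran in Python 3.11.15 with scipy 1.17.1 and numpy 2.4.6 (pandas 2.3.3 for tables, matplotlib 3.10.9 for plots).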

Additional observations from a re-analysis of the deposited data

How the results depend on the processing

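The main count of 650 lowered peaks was 364 with median-of-ratios scaling, 3101 with a ratio of at most 0.66, 83 with a mean density of at least 50, 1693 without a density minimum and 130 among peaks called in both libraries. With recovered reads at the same total, an alternative chosen after seeing the data, it was 409, of which 395 were among the 650. The same total density gave 441, a pseudocount of 0.1 gave 728 and all sequences gave 654. The median log2 ratio of the members moved from -1.17 to -1.14 with median-of-ratios scaling, -0.79 with the ratio of 0.66, -1.14 for peaks called in both libraries and -1.15 with recovered reads. The share in promoters moved from 8.0% to 11.5% at the ratio of 0.66. The share between genes moved from 39.1% to 32.9% at that ratio and to 34.9% at a density of 50, where the intronic share was 36.1% (44.3% in the main set). The downstream share moved from 4.46% to 2.42% at the ratio of 0.66, 12% at a density of 50, 2.54% without a minimum, 1.54% for peaks called in both libraries and 7.09% with recovered reads. Listed genes with a lowered peak numbered 35, and 111 with the ratio of 0.66, 11 with a density of 50 and 13 with peaks within 10 kb of the start of the assigned gene only. Under that 10 kb limit the TEAD, YAP and TAZ, TGF-β, channel and inflammatory lists had 0 genes left. Focal adhesion and crosslinking had 1 each, housekeeping 2 and structural matrix 3. Myofibroblast markers and smooth muscle contractile genes had 4 each, and SRF targets 6. The cause of these moves was not tested beyond the numbers of peaks that each setting admits. Loci at 10 kb (572) and 100 kb (518) and listed genes by the nearest start (38) stayed within 1.5 times of the main value. At the same total density the neighbours' median at 2 to 5 kb was -0.25, inside its interval, and those of all farther classes moved toward 0, from -0.25 to -0.17 at 5 to 10 kb and from -0.12 to -0.04 beyond 500 kb, in the same order of distance. The 85 named peaks were chosen for low ratios, so their sign under other settings is no sign of stability. No paired analysis was possible because each condition had 1 library, and no library could be left out for the same reason. The share of motifs in the peaks themselves, at 300 or 200 bp, was not run, for lack of a genome of the table's assembly.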

Other observations

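Outside the numbered chromosomes, 4 of 233 strong peaks of the X chromosome (1.72%) met the same ratio, and 0 of 5 on Y and 0 of 36 on unplaced scaffolds did. One lay in Chrdl1, which encodes a BMP antagonist (34.4 in NC and 16.3 in SiPiezo2, log2 ratio -1.03), one in Nhs (46.6 and 19.7, -1.20), and the intergenic pair had -1.07 and -1.43.

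Of the 334 genes with a lowered peak, 282 had 1, 42 had 2 and 10 had 3. The 10 were Ankrd1, Bvht, Cemip, Farp1, Fbn1, Kif26b, Pakap, Syn3, Thbs1 and Vps53. Syn3 overlaps Timp3, and its members had log2 ratios of -1.61, -1.37 and -1.25, while its remaining strong peaks had a median of -0.33. Vps53, which encodes a subunit of a vesicle tethering complex, had members at -1.34, -1.03 and -1.13 and 0.52 at its TSS.

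Among the 5 densest members, the peak in the 3′ portion of Ccn2 had 170 in NC and 70.4 in SiPiezo2 (-1.26), and a peak at the promoter of Gm9975, 3.32 kb past the end of Vmp1, had 146 and 70.6 (-1.03).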
